A study of Mus musculus with 12 samples.

Results

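The genes described here are 40 mouse genes of inflammatory and chemokine signalling, chosen by name, out of the 37583 gene IDs counted by RNA-seq in Ocy454 cells. They comprise 7 CC chemokines, 8 CXC chemokines and the CX3C chemokine Cx3cl1, 3 ligands and 5 receptors of the interleukin-6 (IL-6) family, 7 other cytokines, 4 subunits and 3 feedback regulators of nuclear factor kappa B (NF-kB), and 2 adhesion molecules. Ocy454 is a mouse osteocyte line from long bones of animals that carried a temperature-sensitive SV40 large T antigen and a GFP driven by the Dmp1 promoter, and the study used a single-cell sub-clone of it. Cells described as original (control) or as lacking HDAC4 and HDAC5 (DKO) were cultured for 14 days at the temperature that inactivates the T antigen, then kept static or subjected for 3 h to shear from fluid flow (FFSS, fluid flow shear stress) by orbital rotation on a heated platform. Both proteins belong to the class IIa histone deacetylases, which repress transcription factors such as MEF2 when nuclear. The 4 groups (control static, control FFSS, DKO static and DKO FFSS) held 3 libraries each. All control libraries came from one line and all DKO libraries from another, so the genotype and the line cannot be told apart, and the labels do not say whether replicates were separate cultures, so p-values measure the spread between these libraries alone.

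Chemokines are small secreted proteins that attract cells carrying the matching receptor. The cytokines of the IL-6 family bind their own receptor chains and signal through the shared chain gp130, the product of Il6st, to the JAK kinases and STAT3. NF-kB dimers are held in the cytoplasm by inhibitors or made from precursors, enter the nucleus on stimulation and activate genes for chemokines, cytokines, adhesion molecules and their own inhibitors. In bone, gp130 cytokines act on osteoblasts and osteoclasts, and CXCL12 made by stromal and osteoblast-lineage cells retains blood-forming cells in the marrow.

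Between 17.6 and 19.2 M reads per library were assigned to genes, so that 3 counts, the limit that a count of 0 allows, corresponded to at most 0.178 CPM (counts relative to TMM-scaled library totals). The mRNA of an edited gene need not be lost, and no protein was measured in these files. Hdac4 has 2 gene IDs in these files. The first ranged over 458 to 550 counts in static control and 220 to 309 in static DKO libraries, and 597 to 860 against 214 to 250 under FFSS. The second differed less, with 404 to 473 against 311 to 325 counts in static libraries and 403 to 606 against 270 to 322 under FFSS. Hdac5 ranged over 2421 to 2706 counts in static control and 1461 to 1634 in static DKO libraries, but under FFSS the groups overlapped, with 1457 to 1755 in control and 1553 to 1687 in DKO libraries. Control FFSS replicate 1 stood apart from its group. A chi-square statistic of its counts against those of replicates 2 and 3 was 64.9 and 59.1 per degree of freedom, against 6.6 between replicates 2 and 3 and 2.03 to 5.71 for the pairs in the other groups. The share of reads outside annotated genes was 5.87% in that library, against 9.19% and 10.04% in replicates 2 and 3 and 5.10% to 5.21% in the static control libraries. The labels give it the same treatment as replicates 2 and 3, whether it received the flow in full cannot be told from the files, and control FFSS means, fold changes and interactions include it unless stated. The summed level of 15 gene IDs for osteoblast-lineage and osteocyte markers ran from 6530 to 20030 CPM in control FFSS, against 19705 to 23762 in control static, 62082 to 69452 in DKO static and 64238 to 66580 in DKO FFSS libraries. Such a sum follows its most abundant genes. At the adjusted p, 8 of the 13 tested were higher and 1 lower in static DKO than in static control cells (27% and 27.2% of all genes were). With FFSS in control cells 1 was higher and 3 were lower (17.7% and 18.1% of all genes were). Leukocyte markers summed to between 19.7 and 33.1 CPM in control and between 9.90 and 12.3 CPM in DKO libraries, and the difference was that of Cd68, while Csf1r, Cd14 and Lyz2, the other 3 of the 10 markers that were tested, were higher in static DKO than in static control cells at the adjusted p. Ptprc, which encodes the pan-leukocyte antigen CD45, had at most 3 counts in any library, and Cd3e and Ly6g had 0 in all. Marrow fat markers summed to between 1.68 and 2.53 CPM in control and between 0.280 and 1.28 CPM in DKO libraries. The 1 of these 3 markers that was tested was lower in DKO cells, with log2 fold changes of −1.74 in static culture and −2.12 under FFSS. Endothelial markers summed to at most 1.03 CPM in any library. The part of these differences in the results below was not tested.

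Of the 40 genes, 30 passed the filter on low counts and were tested among 14904 genes (edgeR quasi-likelihood test, Benjamini-Hochberg adjustment over all of them). Calls required an adjusted p below 0.05 and a change above 2-fold. In static control cells the highest levels per kilobase of exon were those of Nfkbia, the classical NF-kB inhibitor IkB alpha, at 71.0 ± 2.85 CPM per kilobase (SD, n = 3), followed by the NF-kB subunit gene Nfkb2 at 43.1 ± 0.960 and the receptor genes Lifr at 30.8 ± 2.29 and Il6st at 28.1 ± 0.838. The neighbours Lifr and Il6st differed by less than 2 SD, and so did Nfkb1 (22.0 ± 0.276) and Cxcl12 (20.3 ± 1.11). Among the ligands, Cxcl12 and Ccl2 (16.5 ± 0.806) were highest per kilobase, and Il6 was low at 0.338 ± 0.0458. Tested genes with few reads were Icam1, with at most 9 counts in any library, and Il6 and Il7, with at most 17 and 13.

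**Figure D1:**
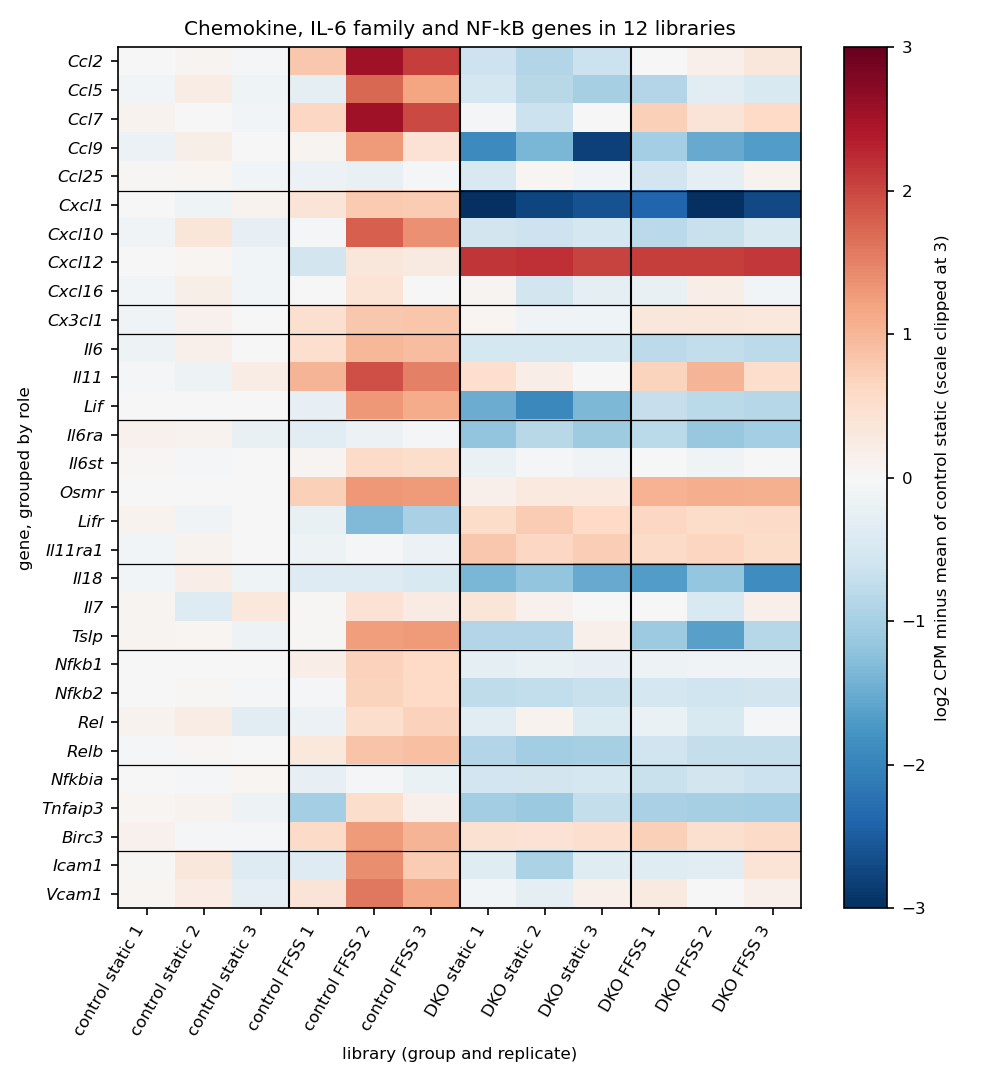
Log2 CPM of the 30 tested genes in the 12 libraries, each shown as the difference from the mean of the 3 control static libraries and grouped by role (colour scale clipped at 3). Control FFSS replicates 2 and 3 are red for most chemokines and IL-6 family ligands, control FFSS replicate 1 is paler, and the DKO columns are red for Cxcl12 and blue for Cxcl1, Ccl9, Lif and Il18.

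To determine how these genes responded to flow, FFSS was compared with static culture in control cells. The genes called higher were Ccl2, Ccl7, Cxcl10, Il11, Osmr, Tslp and Vcam1 (3 chemokines, an IL-6 family ligand and a receptor, another cytokine and an adhesion molecule), 7 of the 30 tested (23.3%), where 3.96% of all 14904 genes were called higher. With no limit on fold, 16 (53.3%) were higher and 2 were lower, against backgrounds of 17.7% and 18.1%. No gene of the group was called lower by edgeR or DESeq2, where the background was 1.97%, and 3 were lower at an unadjusted p under 0.05, against 23.5% of all genes. The median log2 fold change was 0.68 over the 30 genes and 0.01 over all genes tested. In bulk RNA, more cells that express a gene and more RNA per cell cannot be told apart.

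The response was uneven among the 3 control FFSS libraries. The median difference of the 30 genes from the static mean was 0.02 on the log2 CPM scale in replicate 1, 0.80 in replicate 2 and 0.73 in replicate 3, and 1, 12 and 10 of them exceeded a difference of 1, where 1.59%, 6.39% and 7.56% of all genes tested did. Without control FFSS replicate 1, 13 genes were called, 12 higher (background 6.86%) and Lifr lower (background 4.46%), the added ones being Birc3, Ccl5, Icam1, Il6, Lif and Lifr. Without control FFSS replicate 2 or without control static replicate 3, 4 were called, namely Ccl2, Ccl7, Il11 and Osmr. The share of all genes called is not given for these omissions, so these 4 are not set against a background. Leaving out 1 library in turn was planned for every library, and replicate 1 was singled out after the values were seen.

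The monocyte-attracting CC chemokines Ccl2 and Ccl7 are neighbours on chromosome 11 (mm9 chr11:81849073-81850955 and chr11:81859214-81861027, plus strand). Ccl2 stood at 351, 380 and 342 counts in static and at 642, 2260 and 1605 in FFSS libraries. Ccl7 stood at 69, 65 and 61 counts in static and at 104, 418 and 276 in FFSS libraries. For both genes every FFSS library lay above every static library, with replicate 1 nearest to the static level. The groups were separated in this way, in CPM, for 12 of the 30 genes and for 19.3% of all genes tested. Ccl2 rose 3.96-fold (log2 fold change 1.98, SE 0.36, edgeR adjusted p = 0.00335). Ccl7 rose 3.85-fold (log2 fold change 1.95, SE 0.40, edgeR adjusted p = 0.00477). Without replicate 1 the log2 fold changes were 2.34 (SE 0.12) and 2.32 (SE 0.16). Ccl5, an attractant of T cells and monocytes, had 113, 142 and 110 counts in static and 101, 432 and 292 in FFSS libraries. Its groups overlapped and it was not called (log2 fold change 1.09, SE 0.40, edgeR adjusted p = 0.0561).

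Cxcl10, an interferon-induced attractant of CXCR3-bearing T cells (mm9 chr5:92775664-92777915, minus strand), stood at 114, 162 and 104 counts in static and at 124, 466 and 343 in FFSS libraries. Replicate 1 lay within the static range. Cxcl10 rose 2.31-fold (log2 fold change 1.21, SE 0.37, edgeR adjusted p = 0.0279), a call that was lost in 6 of 19 alternatives, with an adjusted p of up to 0.108. Its exons share 133 bases with Art3 on the opposite strand, and reads there can be left out of the count of either gene. The neutrophil attractant Cxcl1 had 174, 160 and 184 counts in static and 230, 323 and 311 in FFSS libraries, with no overlap, and rose 1.58-fold (edgeR adjusted p = 0.00365). Cx3cl1, a membrane-anchored chemokine, rose 1.64-fold from 751, 903 and 812 to 1164, 1534 and 1558 counts (edgeR adjusted p = 0.000127). Cxcl12, at 3179, 3334 and 2961 counts in static and 2203, 4308 and 4048 in FFSS libraries, went down in replicate 1 and up in the other replicates, and Ccl9, Ccl25 and Cxcl16 were not past the threshold either.

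Of the IL-6 family ligands, Il11, which acts through its own receptor and gp130, rose 3.09-fold in control cells. It had 17, 16 and 21 counts in static and 39, 80 and 58 in FFSS libraries, with no overlap (log2 fold change 1.63, SE 0.27, edgeR adjusted p = 0.000728). Il6 itself had 6, 8 and 7 counts in static and 11, 17 and 16 in FFSS libraries and rose 1.97-fold, just under the fold limit (edgeR adjusted p = 0.0263, up to 0.140 in alternatives). Lif, a cytokine that signals through the LIF receptor and gp130, had 201, 200 and 203 counts in static and 173, 540 and 467 in FFSS libraries. Its replicate 1 lay below every static library, and its 1.84-fold rise passed the threshold at an adjusted p of 0.0488 in edgeR and missed it in 15 of 19 alternatives, with an adjusted p of up to 0.172.

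The receptor genes moved in different directions. Osmr encodes the receptor chain for oncostatin M. It stood at 548, 554 and 545 counts in static and at 927, 1467 and 1414 in FFSS libraries, and all 3 FFSS libraries were far above the narrow static range. Osmr rose 2.19-fold (log2 fold change 1.13, SE 0.12, edgeR adjusted p = 3.13e-05). Il6st rose 1.33-fold (edgeR adjusted p = 0.00657). Lifr, the LIF receptor gene, fell from 6453, 5643 and 6081 counts to 5335, 2610 and 3294, a log2 difference of −0.76 (SE 0.22, edgeR adjusted p = 0.0257, up to 0.0976 in alternatives). All FFSS libraries lay below the static ones for Lifr, by little in replicate 1, and without it the log2 fold change was −1.13 (SE 0.09). Il6ra and Il11ra1, which encode the ligand-binding chains for IL-6 and IL-11, were not past the threshold, with log2 fold changes of −0.19 (SE 0.12) and −0.12 (SE 0.11).

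Among the NF-kB genes, 3 of the 4 subunit genes rose by less than 2-fold, where 17.7% of all genes were higher at the adjusted p. Relb, the partner of p52 in the non-canonical pathway, stood at 884, 955 and 930 counts in static and at 1170, 1787 and 1820 in FFSS libraries and rose 1.63-fold (edgeR adjusted p = 0.000846). Nfkb1, which encodes p105 and p50, rose 1.43-fold (edgeR adjusted p = 0.00120) with no overlap, and Nfkb2, which encodes p100 and p52, rose 1.35-fold with overlapping groups (edgeR adjusted p = 0.0340, up to 0.131 in alternatives). Rel missed the threshold (0.38 on the log2 scale, SE 0.22). The feedback regulators did not move together. Birc3, which encodes the ubiquitin ligase cIAP2, had 174, 154 and 153 counts in static and 246, 423 and 344 in FFSS libraries and rose 1.99-fold with no overlap (edgeR adjusted p = 0.000300). Nfkbia fell by 0.17 on the log2 scale (SE 0.06, edgeR adjusted p = 0.0440) and missed the threshold in 15 of 19 alternatives. Tnfaip3, which encodes the ubiquitin-editing protein A20, had 451, 473 and 391 counts in static libraries. Its FFSS counts of 221, 684 and 519 lay on both sides of that range, with replicate 1 below and replicates 2 and 3 above (log2 fold change 0.03, SE 0.30).

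Vcam1, the endothelial and stromal ligand of the integrin VLA-4, stood at 194, 221 and 150 counts in static and at 249, 601 and 438 in FFSS libraries. With no overlap, it rose 2.15-fold (log2 fold change 1.11, SE 0.26, edgeR adjusted p = 0.00736). Tslp, a cytokine of epithelial and stromal cells, had 12, 12 and 10 counts in static and 12, 32 and 32 in FFSS libraries. Replicate 1 did not differ in count from the static libraries, and the 2.10-fold rise (edgeR adjusted p = 0.0452) was lost in 12 of 19 alternatives, with an adjusted p of up to 0.156. Il18 and Il7 were not past the threshold.

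**Figure D2:**
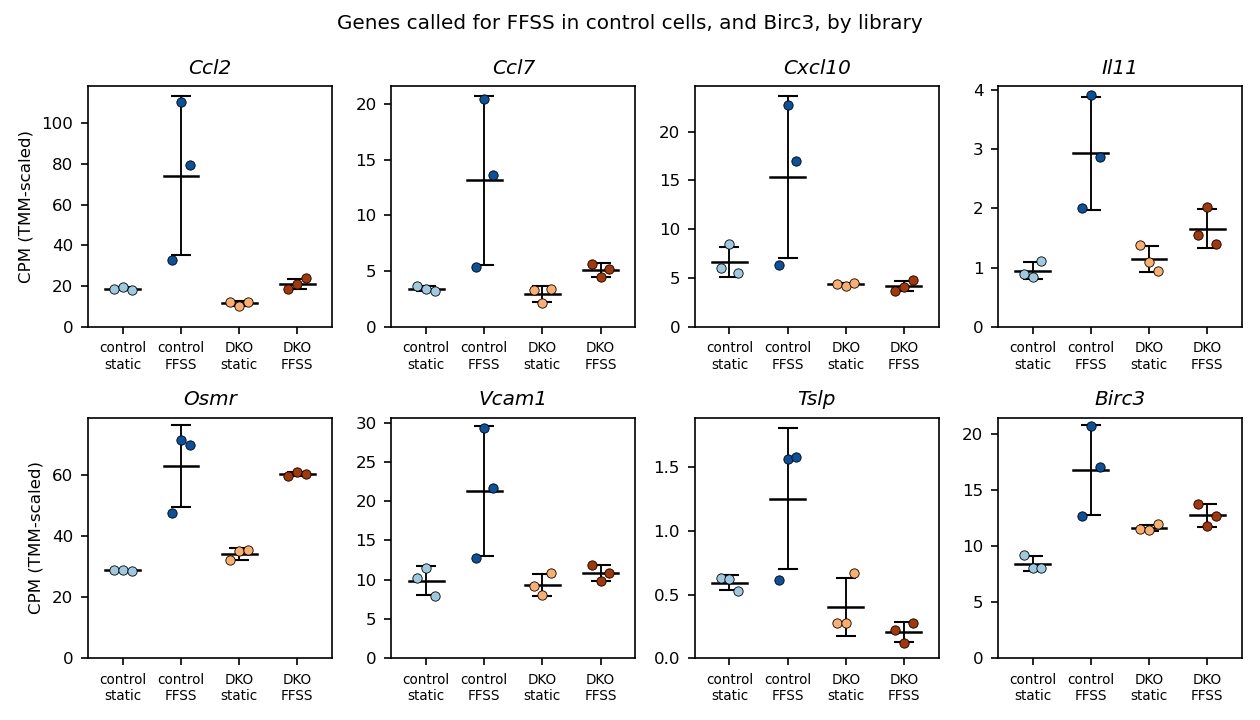
CPM on TMM-scaled library totals for the 7 genes called higher with FFSS in control cells and for Birc3, by group. Points are libraries in replicate order, horizontal lines are means and bars are SD (n = 3). Control FFSS replicate 1 is the lowest point of its group in each panel, and Osmr alone among these 8 is as high in DKO FFSS (60.4 ± 0.743 CPM) as in control FFSS cells (63.1 ± 13.4 CPM) within 1 SD.

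The same question was then asked in DKO cells, where none of the 30 genes was called by edgeR or DESeq2. The backgrounds were 0.0134% of all genes called higher and 0.0738% called lower. At an unadjusted p under 0.05, 4 genes were higher (Osmr, Cx3cl1, Ccl2 and Relb; background 6.16%) and none was lower (background 7.36%). With all 12 libraries and no limit on fold, Osmr was the gene that passed the adjusted threshold, where 0.376% of all genes were higher. Without control FFSS replicate 1 the count called past 2-fold was 0 as well. For that fit the share of all genes called and the count with no limit on fold are not given. Osmr stood at 32.1, 35.3 and 35.4 CPM without flow and at 59.7, 61.1 and 60.3 CPM with it and rose 1.76-fold with no overlap (log2 fold change 0.82, SE 0.12, edgeR adjusted p = 0.00734, or 0.0545 without DKO FFSS replicate 2). Over the 30 genes the median log2 fold change was 0.13, against −0.01 over all genes.

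In CPM, 9 of the 30 genes were higher in every DKO FFSS library than in every DKO static library, where 14% of all genes tested were, and of these Osmr passed the adjusted threshold. Ccl2 stood at 222, 185 and 217 counts in static and at 340, 352 and 426 in FFSS DKO libraries, with no overlap (log2 fold change 0.88, SE 0.39, edgeR adjusted p = 0.366). Ccl7 stood at 60, 39 and 61 counts in static and at 102, 75 and 93 in FFSS DKO libraries (log2 fold change 0.79, SE 0.45). Lif stood at 67, 49 and 74 counts in static and at 118, 101 and 104 in FFSS DKO libraries (log2 fold change 0.81, SE 0.38). These 3 genes were among the 9, and the standard errors carry the spread of all 12 libraries, control FFSS replicate 1 included. Fitted within each group, the coefficient of variation between libraries was 0.190 in control FFSS, 0.0448 in DKO static and 0.0358 in DKO FFSS. An adjusted p above the threshold therefore does not show that these genes did not respond in DKO cells. Cxcl10, at 80, 77 and 81 counts without flow and 67, 68 and 85 with it, overlapped (log2 fold change −0.07, SE 0.43). Birc3 (209, 208 and 215 against 249, 198 and 226 counts) and Vcam1 (168, 147 and 195 against 215, 165 and 195 counts) overlapped as well. Il11 stood at 25, 20 and 17 counts in static and at 28, 34 and 25 in FFSS DKO libraries (log2 fold change 0.53, SE 0.29).

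Whether the response to FFSS differed between the genotypes was tested by the interaction, in which the control response is subtracted from the DKO response. With all libraries no gene of the 30 was called by edgeR or DESeq2, against 0.376% of all genes called higher and 0.275% called lower, and 9 were lower and 1 higher at an unadjusted p under 0.05 (backgrounds 12% and 11.7%). With no limit on fold Birc3 passed, where 1.68% of all genes were lower and 2.28% higher. Its rise in control cells was larger than in DKO cells by 0.86 on the log2 scale (interaction −0.86, SE 0.21, edgeR adjusted p = 0.0368). This difference missed the threshold in 12 of 18 alternatives, with an adjusted p of up to 0.103. The median interaction was −0.32 over the 30 genes and −0.02 over all genes.

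The interaction depended on control FFSS replicate 1. Without it, 9 genes were called, 8 lower (background 4.17%) and 1 higher (background 3.43%), and with no limit on fold 17 were lower (background 17.7%) and 1 higher (background 19.9%). The 8 called lower were Birc3 (−1.03, SE 0.14), Ccl2 (−1.45, SE 0.19), Ccl5 (−1.23, SE 0.26), Ccl7 (−1.52, SE 0.26), Cxcl10 (−1.65, SE 0.23), Il11 (−1.30, SE 0.36), Tslp (−2.33, SE 0.60) and Vcam1 (−1.15, SE 0.21), and Lifr (1.08, SE 0.12) was the higher one. In that fit a lower interaction is an FFSS effect lower in DKO than in control cells. The omitted library was nearest to the static level for these genes and was singled out after its values were seen, so that fit is not a separate test. With all libraries the same estimates were smaller and less certain, and of these 9 genes Birc3 alone passed the adjusted threshold. Ccl2 gave −1.10 (SE 0.53, edgeR adjusted p = 0.243), Cxcl10 −1.28 (SE 0.57, edgeR adjusted p = 0.207) and Tslp −2.01 (SE 0.71, edgeR adjusted p = 0.118). Osmr and Lif gave −0.48 (SE 0.08) and −0.42 (SE 0.18) without that library and −0.31 (SE 0.17) and −0.07 (SE 0.50) with it.

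**Figure D3:**
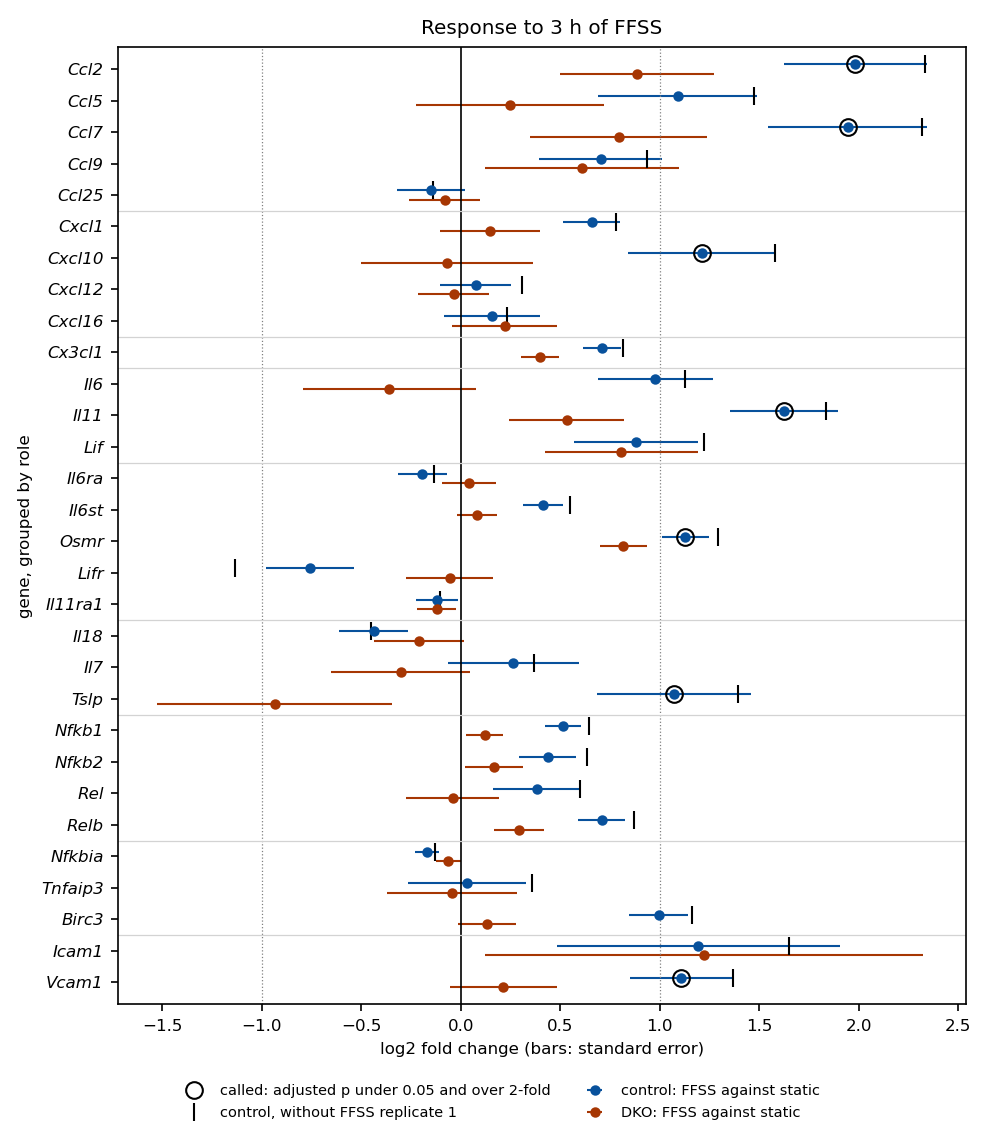
Log2 fold change of FFSS against static for the 30 tested genes, in control (blue) and DKO (brown) cells, with standard errors from the fit of 12 libraries, circles on called genes, dotted lines at 2-fold and black ticks for control cells without FFSS replicate 1. The 7 circled genes are all blue and lie above 1, and the ticks lie farther from 0 than the blue points for Ccl2, Ccl7, Cxcl10 and Lifr.

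To show what these genes share in sequence, their promoters were searched. RefSeq promoters of build GRCm38.p6, from 250 bases before to 50 bases after the transcription start, were found for 28 of the 40 genes by symbol, Ccl2, Ccl5, Ccl7, Csf3, Cxcl16, Cxcl5, Il15, Il7, Nfkb1, Relb, Tslp and Vcam1 not being among them. On either strand, the 10-base NF-kB consensus was present for 11 of 28 genes (39.3%) and for 9.55% of the 27025 genes with a promoter in the table. The AP-1 motif TGANTCA was present for 9 (32.1%, against 8.97% of all), and the interferon response motif (GAAA repeated after any 2 bases) for 2 (7.14%, against 3.99%). The MEF2 consensus was found in none of the 28 and in 0.636% of all. The NF-kB consensus is nearly its own reverse complement, so adjacent matches may overlap. A match is a description of letters and not a measured site. Of the genes called for FFSS in control cells, Cxcl10 had all 3 kinds of match, Il11 (at its downstream start) and Osmr an AP-1 match alone. Of the 5 genes called lower in static DKO cells, Cxcl1, Ccl9 and Lif had NF-kB matches and Il18 and Il6ra had no match of these 4 motifs, and neither had Cxcl12, which was higher. Cxcl14 had an interferon response match. Promoters of 6 genes that the results turn on are given 5′ to 3′ on the strand of the gene, with matches in capitals: Cxcl10 (chr5:92348840-92349139, minus strand), Osmr (chr15:6874264-6874563, minus strand), Cxcl1 (chr5:90890995-90891294, plus strand), Lif (chr11:4257318-4257617, plus strand), Cxcl14 (chr13:56296502-56296801, minus strand) and Cxcl12 (chr6:117168285-117168584, plus strand).
Cxcl10: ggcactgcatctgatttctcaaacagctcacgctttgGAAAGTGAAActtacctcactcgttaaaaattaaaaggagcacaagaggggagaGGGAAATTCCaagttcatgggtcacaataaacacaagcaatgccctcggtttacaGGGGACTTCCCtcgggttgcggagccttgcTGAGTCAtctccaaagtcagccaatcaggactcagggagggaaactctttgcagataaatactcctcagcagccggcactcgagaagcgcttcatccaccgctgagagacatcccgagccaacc
Osmr: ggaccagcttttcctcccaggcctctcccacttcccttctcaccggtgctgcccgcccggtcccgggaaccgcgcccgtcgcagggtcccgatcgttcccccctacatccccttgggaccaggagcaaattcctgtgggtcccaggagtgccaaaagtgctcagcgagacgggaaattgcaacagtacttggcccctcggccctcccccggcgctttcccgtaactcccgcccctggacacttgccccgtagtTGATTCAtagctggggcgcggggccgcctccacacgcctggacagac
Cxcl1: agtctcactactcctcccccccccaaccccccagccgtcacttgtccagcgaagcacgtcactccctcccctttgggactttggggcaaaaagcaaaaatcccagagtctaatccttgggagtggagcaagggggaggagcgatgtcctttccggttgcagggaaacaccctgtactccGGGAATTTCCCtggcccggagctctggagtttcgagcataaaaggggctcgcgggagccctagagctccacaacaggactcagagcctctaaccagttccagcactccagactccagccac
Lif: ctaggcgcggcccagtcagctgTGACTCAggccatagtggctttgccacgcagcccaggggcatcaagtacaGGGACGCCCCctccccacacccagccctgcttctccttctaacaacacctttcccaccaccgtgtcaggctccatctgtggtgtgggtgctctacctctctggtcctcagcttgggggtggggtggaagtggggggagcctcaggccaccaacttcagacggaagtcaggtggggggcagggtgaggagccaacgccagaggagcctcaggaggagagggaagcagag
Cxcl14: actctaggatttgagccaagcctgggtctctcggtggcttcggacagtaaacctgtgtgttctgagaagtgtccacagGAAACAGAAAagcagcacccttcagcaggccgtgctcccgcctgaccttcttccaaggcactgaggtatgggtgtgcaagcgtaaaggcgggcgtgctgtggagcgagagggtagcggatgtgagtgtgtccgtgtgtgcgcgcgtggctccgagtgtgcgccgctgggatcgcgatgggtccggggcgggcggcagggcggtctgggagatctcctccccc
Cxcl12: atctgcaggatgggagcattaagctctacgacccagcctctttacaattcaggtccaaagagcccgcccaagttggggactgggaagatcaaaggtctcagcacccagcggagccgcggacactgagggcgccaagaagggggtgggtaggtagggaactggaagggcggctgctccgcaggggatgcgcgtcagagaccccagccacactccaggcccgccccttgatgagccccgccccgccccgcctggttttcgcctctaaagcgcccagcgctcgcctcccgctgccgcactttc
In Cxcl10 the interferon response match GAAAGTGAAA began 213 bases before the start, the NF-kB match GGGAAATTCC at 159 bases and an overlapping NF-kB pair at 104 and 103 bases before it, and the AP-1 match TGAGTCA at 74 bases before it. In Cxcl1 the overlapping NF-kB pair began at 71 and 70 bases before the start. In Lif the AP-1 match TGACTCA began at 228 and the NF-kB match GGGACGCCCC at 178 bases before the start. Cxcl10 and Cxcl1 both carried NF-kB matches. With FFSS in control cells their log2 fold changes were 1.21 (SE 0.37) and 0.66 (SE 0.14). For DKO against control in static cells they were −0.60 (SE 0.41) and −2.92 (SE 0.19). The differences between these genes were not tested.

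DKO and control cells were next compared without flow. The chemokine Cxcl12 was higher in DKO cells, whereas Cxcl1, Ccl9, Lif, Il18 and Il6ra were lower. These 6 of 30 genes were called, 1 higher and 5 lower, against backgrounds of 7.98% and 7.3%. With no limit on fold, 4 were higher and 10 lower (13.3% and 33.3%), where 27% and 27.2% of all genes were. Over the 30 genes the median log2 fold change was −0.41, against 0.01 over all genes. Under the alternatives for scaling, filter and tool, the replicate block and the omission of each library, the count stayed between 5 and 8. The share of all genes called is not given for these alternatives.

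Cxcl12, the ligand of CXCR4 and ACKR3 (mm9 chr6:117118553-117131385, plus strand), stood at 3179, 3334 and 2961 counts in control and at 13351, 13687 and 12222 in DKO libraries. The groups were far apart, and Cxcl12 was 4.35-fold higher in DKO cells (a log2 difference of 2.12, SE 0.19, edgeR adjusted p = 3.48e-06). At 88.2 ± 4.62 CPM per kilobase it had the highest level per length of the 30 genes in DKO static cells, above Nfkbia at 48.3 ± 0.680. Cxcl14, a chemokine of epithelial and stromal tissues (mm9 chr13:56390008-56397912, minus strand), fell outside the filter because control libraries lacked it. Static control libraries held 0, 0 and 1 of its reads and FFSS control libraries 1, 0 and 0. Static DKO libraries held 75, 99 and 87, and FFSS DKO libraries 116, 109 and 132. The ratio of DKO to control was 274 in static cells (exact 95% interval on the summed counts 48.7 to 10862) and 407 under FFSS (72.6 to 16114), which covers counting error alone. With no filter, among 24360 genes, its log2 fold change was 7.64 in static cells (SE 0.46, edgeR adjusted p = 7.50e-16).

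Cxcl1 was the gene with the largest fall in DKO cells among those tested. It stood at 174, 160 and 184 counts in control and at 17, 23 and 25 in DKO libraries and was 7.56-fold lower (log2 fold change −2.92, SE 0.19, edgeR adjusted p = 2.21e-08). Ccl9, a CC chemokine of the mouse, stood at 43, 56 and 49 counts in control and at 11, 17 and 5 in DKO libraries and was 4.24-fold lower (log2 fold change −2.08, SE 0.41, edgeR adjusted p = 0.000694). Lif stood at 201, 200 and 203 counts in control and at 67, 49 and 74 in DKO libraries and was 3.02-fold lower (log2 fold change −1.60, SE 0.36, edgeR adjusted p = 0.00345). For all of these, no DKO library reached the lowest control library, a separation seen in CPM for 14 of the 30 genes and for 34.1% of all genes tested. Il18, an interleukin of the IL-1 family, had 74, 92 and 72 counts against 28, 32 and 25 and was 2.66-fold lower (edgeR adjusted p = 2.52e-05). Il6ra had 337, 334 and 265 counts against 129, 165 and 139 and was 2.06-fold lower (edgeR adjusted p = 1.13e-05). The Il6ra call was lost at the fold limit when control static replicate 1 or 2 or DKO static replicate 1 was left out. Its log2 fold change ran from −1.15 to −0.96 over the alternatives, past the adjusted threshold in all of them.

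**Figure D4:**
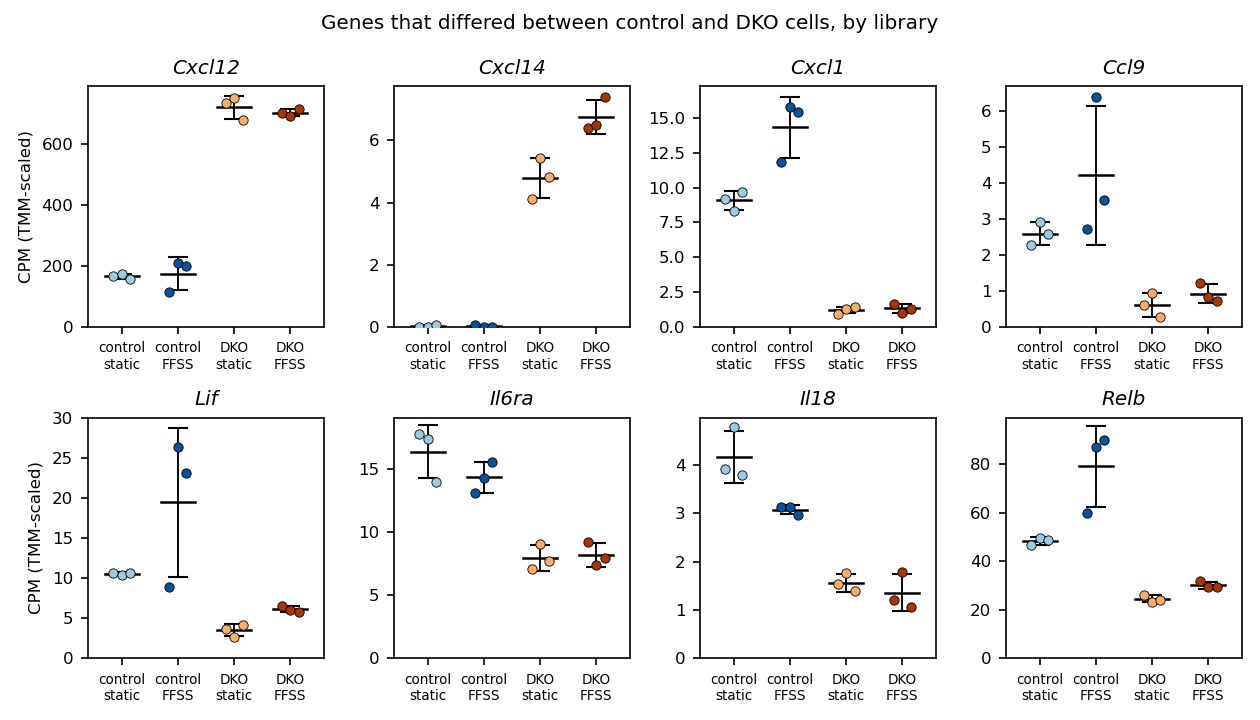
CPM on TMM-scaled library totals by group for 8 genes that differed between control and DKO cells. Points are libraries in replicate order, horizontal lines are means and bars are SD (n = 3). Cxcl12 and Cxcl14 are high in both DKO groups, and the other 6 genes are lower in both DKO groups than in both control groups.

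Of the other receptors of the family, 2 were higher, where 27% of all genes were, and 2 missed the threshold. Il11ra1 was 1.65-fold higher in DKO static cells, with 205, 180 and 193 counts against 115, 132 and 121 (edgeR adjusted p = 3.39e-05). Lifr was 1.56-fold higher, with 8528, 9810 and 8632 against 6453, 5643 and 6081 counts (edgeR adjusted p = 0.0333, up to 0.0948 in alternatives). Il6st and Osmr were not past the threshold, with log2 fold changes of −0.12 (SE 0.10) and 0.25 (SE 0.12).

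Of the 7 NF-kB genes, 5 were lower in DKO static cells and Birc3 was higher at the adjusted p, where 27.2% and 27% of all genes were, and none passed the 2-fold limit. Relb had 477, 426 and 435 counts in DKO static libraries, about a factor of 1.97 below the 884, 955 and 930 of control static libraries (log2 fold change −0.98, SE 0.12, edgeR adjusted p = 1.63e-05). Nfkb2 was 1.65-fold lower (edgeR adjusted p = 0.00119) and Nfkbia 1.47-fold lower (edgeR adjusted p = 3.32e-06). Tnfaip3, at 200, 191 and 250 against 451, 473 and 391 counts, was 1.95-fold lower (edgeR adjusted p = 0.0234, up to 0.0730 in alternatives), and Nfkb1 was 1.18-fold lower (edgeR adjusted p = 0.0447, up to 0.126 in alternatives). These 5 genes are among the 14 without overlap. Birc3 was 1.38-fold higher (edgeR adjusted p = 0.0179, up to 0.0701 in alternatives), with 209, 208 and 215 against 174, 154 and 153 counts. Ccl2, Ccl5, Cxcl10 and Il6, also among the 14, did not pass the test, with log2 fold changes of −0.71 (SE 0.39), −0.80 (SE 0.45), −0.60 (SE 0.41) and −0.72 (SE 0.37).

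DKO and control cells were then compared under FFSS. Whether a genotype difference changed with flow is the interaction given above. The comparison shares its control FFSS libraries with the FFSS comparison above and is not independent of it. Of the 30 genes, 14 were called, 12 lower (40%, background 8.96%) and 2, Cxcl12 and Lifr, higher (background 8.25%). With no limit on fold, 22 were lower (73.3%, background 29.6%) and 3 higher (background 27%). The median log2 fold change was −0.90, against −0.05 over all genes. Without control FFSS replicate 1, 16 were called lower (background 10.5%) and 2 higher (background 9.58%), Tnfaip3 among the former.

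The 12 lower genes were chemokines and cytokines of several kinds with the NF-kB genes Relb and Tnfaip3. Ccl2 was 3.51-fold lower in DKO FFSS than in control FFSS cells (a log2 difference of −1.81, SE 0.36, edgeR adjusted p = 0.00194), Ccl5, at 62, 86 and 82 against 101, 432 and 292 counts, was 3.11-fold lower (edgeR adjusted p = 0.00689) and Ccl7 2.58-fold lower (edgeR adjusted p = 0.0113). Ccl7 had 102, 75 and 93 counts in DKO FFSS libraries, all below control FFSS replicate 1 at 104, but its groups overlapped in CPM. DKO FFSS replicate 1 stood at 5.64 CPM and control FFSS replicate 1 at 5.34 CPM. The Ccl7 call was lost without control FFSS replicate 2, and its log2 fold change ran from −1.74 to −0.90 over the alternatives. Cxcl10 was 3.69-fold lower (log2 fold change −1.88, SE 0.39, edgeR adjusted p = 0.00195), Ccl9, at 22, 14 and 13 against 53, 131 and 71 counts, 4.52-fold lower, and Cxcl1, at 30, 17 and 23 against 230, 323 and 311 counts, 10.8-fold lower (log2 fold change −3.43, SE 0.19, edgeR adjusted p = 3.13e-09). Il6 had 3 counts in each DKO FFSS library against 11, 17 and 16 in control FFSS libraries and was 4.16-fold lower (edgeR adjusted p = 0.000151). Lif was 3.18-fold lower (edgeR adjusted p = 0.00136), Il18, at 22, 30 and 19 against 61, 64 and 60 counts, 2.28-fold lower, and Tslp, at 4, 2 and 5 against 12, 32 and 32 counts, 5.89-fold lower (edgeR adjusted p = 0.000424).

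Relb, at 31.7, 29.3 and 29.3 CPM in DKO FFSS and 60.1, 87.3 and 90.1 CPM in control FFSS libraries, was 2.63-fold lower than in control FFSS cells (a log2 difference of −1.40, SE 0.12, edgeR adjusted p = 4.98e-07), and all DKO libraries lay well below all control libraries. Tnfaip3, at 210, 193 and 200 counts, was 2.06-fold lower (edgeR adjusted p = 0.0161, up to 0.0570 in alternatives), and its DKO level was near that of control FFSS replicate 1 (221 counts). Nfkb1, Nfkb2, Rel and Nfkbia were lower by less than 2-fold, with log2 fold changes of −0.63 (SE 0.09), −0.99 (SE 0.14), −0.63 (SE 0.22) and −0.45 (SE 0.06), and Rel missed the threshold in 5 of 19 alternatives (adjusted p up to 0.127). Birc3 was 1.32-fold lower with overlapping groups (edgeR adjusted p = 0.0281, up to 0.161 in alternatives and lost in 5 of 19), where it was higher in static cells. Il6ra (1.75-fold), Il6st (1.36-fold), Il11 (1.77-fold), Vcam1 (1.96-fold) and Cx3cl1 (1.30-fold) were also lower past the adjusted threshold. Of these, Il11 had overlapping groups and missed the threshold in 3 of 19 alternatives (adjusted p up to 0.0751).

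The 2 genes called higher under FFSS were Cxcl12, at 12706, 11644 and 12815 counts against 2203, 4308 and 4048 (4.03-fold, edgeR adjusted p = 5.10e-06), and Lifr, at 8770, 7878 and 8512 against 5335, 2610 and 3294 (2.53-fold, edgeR adjusted p = 0.000567). Il11ra1 was 1.64-fold higher. Cxcl12, the highest of the 30 per kilobase in DKO FFSS cells (704 ± 12.2 CPM before division by length), and Il11ra1 gave interactions of −0.11 (SE 0.25) and −0.00312 (SE 0.147). Without control FFSS replicate 1 the interaction of Cxcl12 was −0.34 (SE 0.07), past the adjusted threshold and under 2-fold.

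**Figure D5:**
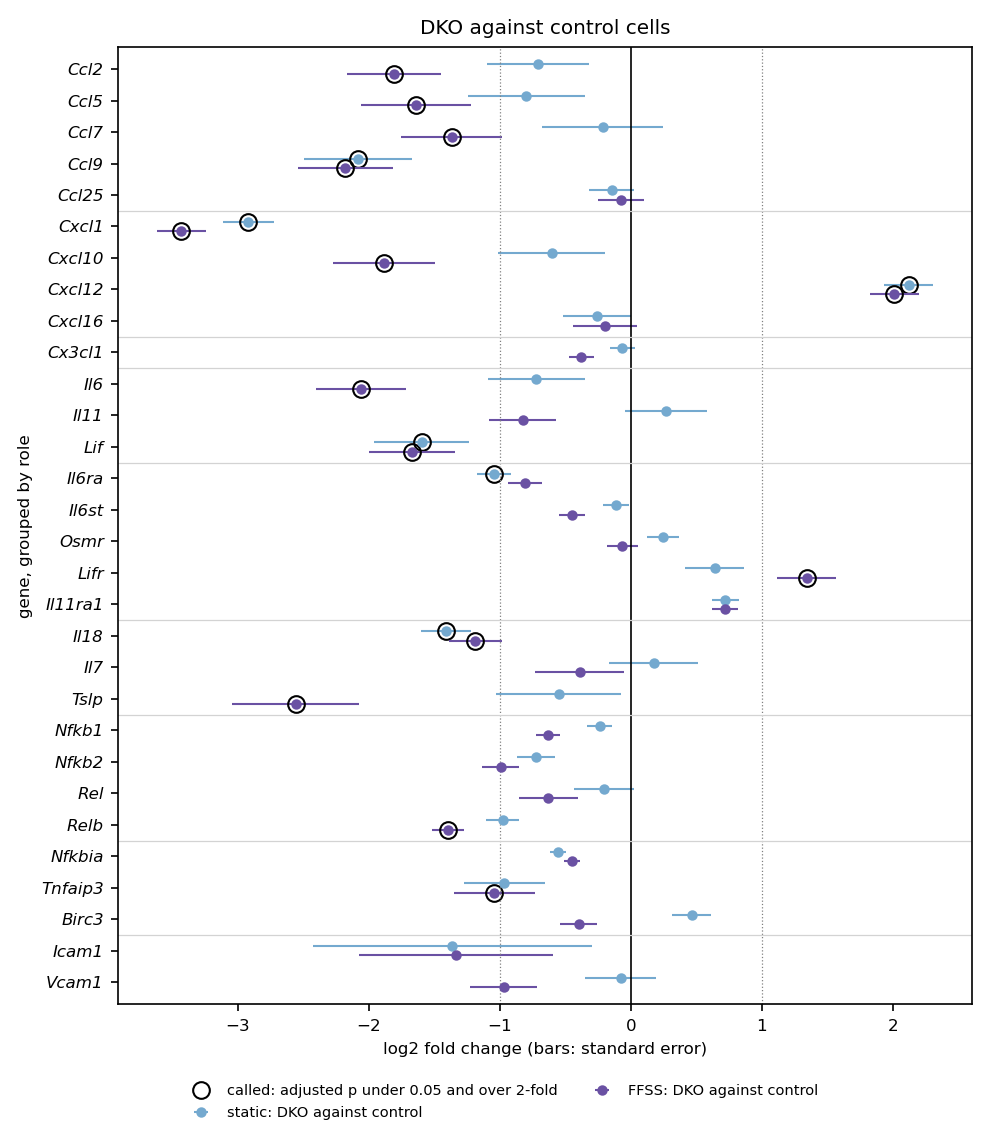
Log2 fold change of DKO against control cells for the 30 tested genes, static (light blue) and under FFSS (purple), with standard errors, circles on called genes and dotted lines at 2-fold. Cxcl12 lies near 2 in both conditions, Cxcl1, Ccl9, Lif and Il18 lie below −1 in both, and Ccl2, Ccl5, Ccl7, Cxcl10, Il6, Lifr, Tslp, Relb and Tnfaip3 are circled under FFSS alone.

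The 10 genes outside the filter were Cxcl14, Ccl8, Ccl20, Cxcl2, Cxcl5, Cxcl9, Il15, Tnf, Csf2 and Csf3. Tnf, Csf2 and Cxcl2 had 0 counts in all 12 libraries, which allows up to 0.178 CPM in a library. Ccl8, Cxcl5, Cxcl9 and Csf3 had at most 2, 3, 8 and 2 counts. Ccl20, an attractant of CCR6-bearing lymphocytes, reached 1, 2 and 1 counts in static and 7, 26 and 12 in FFSS control libraries, with 0, 2 and 0 in static and 0, 0 and 1 in FFSS DKO libraries. It thus rose in every control FFSS library, with a log2 fold change of 3.28 in a fit with no filter (SE 0.70, edgeR adjusted p = 0.000840), and the ratio of control to DKO under FFSS was 39.5 (exact 95% interval 6.73 to 1594). Il15, which supports T and NK cells, reached 4, 3 and 4 counts in static and 5, 4 and 5 in FFSS control libraries, with 0, 0 and 1 in static and 0 in all FFSS DKO libraries, at least 4.10-fold lower in DKO than in control FFSS cells with the floor set at 3 counts over the group. A second gene ID for Ccl25 had 0 counts in all libraries because nearly all of its exons lie within those of the first.

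The other genes of these pathways were read from lists chosen by name. Of 34 further NF-kB components, all tested, 4 were called higher with FFSS in control cells (3.96% of all genes were), and the count without control FFSS replicate 1 was 4 as well (6.86% of all genes were). With all libraries they were Traf1 (log2 fold change 2.47, SE 0.42, edgeR adjusted p = 0.000821), which encodes a signalling adaptor, and the IkB family genes Nfkbid (1.16, SE 0.32), Nfkbie (1.07, SE 0.21) and Nfkbiz (1.09, SE 0.26). In DKO static cells Traf1 was called higher than in control static cells (1.62, SE 0.46, edgeR adjusted p = 0.00796), while 11 of the 34 were higher and 10 lower with no limit on fold, near the 27% and 27.2% of all genes. Of 28 further genes of the IL-6 family and JAK-STAT signalling, 21 were tested. Clcf1 (1.68, SE 0.31) and Cntf (1.04, SE 0.36), both ligands of the family, were called higher with FFSS in control cells, and 3 genes of the 21 were called higher and 3 lower in DKO static cells, where 7.98% and 7.3% of all genes were. Among them were Bcl6, a transcriptional repressor (−1.64, SE 0.08), and Socs2, a feedback inhibitor of JAK-STAT signalling (1.53, SE 0.12).

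Of 23 chemokine receptor IDs 7 were tested. Ackr3, which encodes the scavenging receptor of CXCL12, stood at 1472, 1295 and 1627 counts in control and at 9072, 7817 and 9413 in DKO libraries and was higher in DKO cells by 2.65 on the log2 scale (SE 0.33, edgeR adjusted p = 0.000118), as Cxcl12 was. With FFSS in control cells it fell to 935, 379 and 373 counts (log2 fold change −1.44, SE 0.34, edgeR adjusted p = 0.0106). Ccr10 (1.75, SE 0.32) was also called higher and Ackr4 (−1.21, SE 0.39) lower in DKO static cells, and Cxcr5 (−1.06, SE 0.30) was called lower with FFSS in control cells. Of 19 further chemokine IDs 1 passed the filter, Ccl3, with at most 14 counts, which was named after its values were seen. Under FFSS it was called higher in DKO cells, with 10, 14 and 7 counts against 0, 1 and 1 in control libraries (edgeR adjusted p = 0.00160).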

How the data were processed

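Single-end RNA-seq reads were, per the study's methods, mapped by the authors (STAR, build mm9, Ensembl genes) and tallied per gene by HTSeq. The deposited values are raw counts per gene ID, which the authors neither normalised nor filtered. Counting was unstranded. HTSeq by default leaves out reads on overlapping genes, so 8 of the 40 genes, which share exon sequence with another gene ID, can lose reads.

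Groups were taken from the titles. The members and gene lists were chosen with earlier results of these data known, so no list is independent evidence. Following the study, a gene was dropped where at least 2 libraries had 0 counts, and 14904 genes were fitted together with edgeR 4.0.16 in R 4.3.3 (TMM, robust quasi-likelihood, 4 groups, 5 contrasts), calling a gene past 2-fold at a Benjamini-Hochberg adjusted p below 0.05. The standard error is the log2 fold change divided by the root of F. CPM is relative to TMM-scaled totals (prior count 2 on the log2 scale). Levels per kilobase use merged exon lengths of the mm9 annotation. Every gene called in a comparison was named with its counts or CPM, the other genes past the adjusted p with fold changes, and of the pathway lists those called for FFSS in control cells and the 3 with the lowest adjusted p among those called in static DKO cells. A result that this rule would name is not reported here. Alternatives were RLE factors, library totals, other filters, DESeq2 1.42.0, fits of the 6 libraries compared, a replicate block, no fold limit and the omission of each library. The procedure was also run on simulated data, and the outcome of that run is not reported here. Intervals and floors cover counting error alone, since PCR reads without molecular identifiers are not independent molecules. Replicate pairs differed by more than sampling noise and were counted separately.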

Additional observations from a re-analysis of the deposited data

Results flagged for a closer look

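Birc3, which encodes the ubiquitin ligase cIAP2, had a response to FFSS that differed between the genotypes by the test of the difference itself with no limit on fold. With all libraries Birc3 was the 1 gene of the 30 tested (3.33%) past that threshold, where 1.68% of all genes were lower and 2.28% higher. A count of 1 is near that share and is not a result about the group. The interaction was −0.86 on the log2 scale (SE 0.21, edgeR adjusted p = 0.0368, and up to 0.103 in the alternatives), under the 2-fold limit of a call, and it was lost in 12 of 18 alternatives. Without control FFSS replicate 1, 18 genes passed with no limit on fold, 17 lower (background 17.7%) and 1 higher (background 19.9%). In that fit 9 were called, 8 lower (background 4.17%) and 1 higher (background 3.43%), and Birc3 was among the lower ones of both counts. Its level rose 1.99-fold in control cells, in 3 of 3 libraries above all static ones, and was 1.10-fold higher in DKO cells, where the groups overlapped. No outlier test was made, since every group held 3 libraries.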

How the results depend on the processing

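Of 59 fold changes past the adjusted p, set against up to 19 alternatives each (1120 values), none changed sign and 122 missed the threshold. The count of called genes for FFSS in control cells was 7, 11 with library totals alone and 18 with no fold limit, and 4 to 13 when libraries were left out in turn. With no fold limit the counts were 1 for FFSS in DKO cells, 1 for the interaction, 14 for DKO against control in static cells and 25 under FFSS. Leaving out libraries gave 0 to 9 calls for the interaction, the 9 without control FFSS replicate 1. Library totals alone moved the median of all genes by 0.12 for FFSS in control cells, by −0.11 for the interaction and from −0.05 to −0.25 for DKO against control under FFSS, so differences under that scaling are relative to these shifts. Replicate numbers did not pair the libraries: the mean correlation of deviations was 0.00226 for same-numbered libraries and −0.00116 for others, and 3 of 12 libraries correlated best with their own number. With the replicate block 7, 0, 0, 6 and 13 genes were called in the 5 comparisons, against 7, 0, 0, 6 and 14 without it. The share of all genes called is not given for library totals, the replicate block or the omission of libraries other than control FFSS replicate 1. The counts under those settings are therefore not set against a background. Depth limits Icam1, Il6, Il7, Tslp and the genes outside the filter.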
